A study of Mus musculus with 22 samples.

Results

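The genes described here are 9 transcripts of neutrophil granules and of the alarmin pair that neutrophils carry in bulk: S100a8, S100a9, Mmp8, Mmp9, Ngp, Camp, Ltf, Mpo and Cxcr2. They were taken as a named list, which was chosen with earlier results of these data known. All 9 were among the 18193 genes measured with probe sets of a single symbol. Each gene is given by its probe set with the highest mean over all arrays. Mmp9 has 2 such probe sets and every other member has 1.

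The tissue was spinal cord. Donor mice were wild-type C57Bl/6 animals of 10 to 12 weeks, whose aorta was clamped for 7.5 min or who had a sham operation. Cord from below T6 (caudal) and from above T6 (rostral) was hybridised to separate Affymetrix arrays. The caudal groups were sham (n = 3), 24 h after clamping (n = 3) and 48 h after clamping (n = 4), and the rostral groups were sham (n = 4), 24 h (n = 3) and 48 h (n = 4). One further rostral array, 276, has one label with 24 h and another with 48 h, so it was put in no group. The labels name no perfusion step. Nor do they tie each array to an animal of its own, and the p-values therefore cover only a spread between samples that may be technical. Levels are log2 signals, on which a difference of 1 is a doubling.

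Neutrophils build their granules in sequence while they mature in the bone marrow. Transcripts of primary granules, such as that of myeloperoxidase, are made in early precursors, and transcripts of secondary granules, such as those of lactoferrin, cathelicidin and neutrophilic granule protein, in later precursors. Mature neutrophils in blood have largely shut these genes off but keep S100a8, S100a9 and, as late granule products, the gelatinase and collagenase transcripts. S100a8 and S100a9 encode the subunits of calprotectin, a calcium-binding alarmin that is released from neutrophils and monocytes and acts through Toll-like receptor 4. In injured spinal cord, neutrophils are known as early arrivals from blood.

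Several members lie near each other in the mouse genome. S100a8 and S100a9 are neighbours on chromosome 3 with no protein-coding gene between them in the RefSeq gene table, and on chromosome 9 Camp and Ngp are separated by 8 such genes and Ngp and Ltf by 20. RefSeq promoter sequences (GRCm38.p6) were available for 8 of the 9 members, and Mmp9 is named only. The 250 bases before the start are shown for the alarmin pair, for a pair of secondary granule genes and for Mmp8, because these 5 genes were the members called higher in caudal than in rostral cord at 48 h. They lie at chr3:90668821-90669070 (plus strand), chr3:90695722-90695971 (minus strand), chr9:110419558-110419807 (plus strand), chr9:109849457-109849706 (minus strand) and chr9:7558179-7558428 (plus strand). Each is written 5′ to 3′ on the gene's own strand. Capitals mark matches to the letters TTGCNNAA (C/EBP-type), GAGGAA (PU.1-type) and TGTGGT (RUNX-type) on both strands, and to TATAAA on the gene's strand. In S100a8 a GAGGAA match and TATAAA run into each other.
S100a8: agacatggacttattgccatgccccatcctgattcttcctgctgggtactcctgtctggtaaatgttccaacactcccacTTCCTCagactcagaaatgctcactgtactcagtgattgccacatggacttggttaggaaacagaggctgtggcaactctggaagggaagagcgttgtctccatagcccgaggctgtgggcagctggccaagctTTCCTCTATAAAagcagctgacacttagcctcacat
S100a9: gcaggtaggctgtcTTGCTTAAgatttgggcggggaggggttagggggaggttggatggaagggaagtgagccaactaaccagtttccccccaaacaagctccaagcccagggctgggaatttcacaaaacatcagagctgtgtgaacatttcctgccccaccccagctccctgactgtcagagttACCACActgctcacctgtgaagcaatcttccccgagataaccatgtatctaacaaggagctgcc
Ngp: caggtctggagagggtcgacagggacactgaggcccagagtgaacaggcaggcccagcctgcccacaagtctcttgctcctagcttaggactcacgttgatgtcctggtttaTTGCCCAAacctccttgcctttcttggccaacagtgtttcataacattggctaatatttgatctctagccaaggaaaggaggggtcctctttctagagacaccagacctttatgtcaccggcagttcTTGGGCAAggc
Camp: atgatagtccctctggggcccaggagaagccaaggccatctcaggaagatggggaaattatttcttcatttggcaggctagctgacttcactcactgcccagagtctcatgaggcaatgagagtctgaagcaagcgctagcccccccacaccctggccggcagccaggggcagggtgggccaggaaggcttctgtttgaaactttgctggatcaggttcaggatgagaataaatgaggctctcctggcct
Mmp8: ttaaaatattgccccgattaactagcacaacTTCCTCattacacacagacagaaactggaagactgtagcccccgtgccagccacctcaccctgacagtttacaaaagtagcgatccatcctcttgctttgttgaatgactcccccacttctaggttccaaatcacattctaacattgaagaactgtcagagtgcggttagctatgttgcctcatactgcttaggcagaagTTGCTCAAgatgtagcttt

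The letters TTGCNNAA occurred in 4 of the 8 member promoters (S100a9, Mmp8, Ngp and Ltf), with 2 matches in Ngp, and in 9.6% of all 32851 promoters of the same length. GAGGAA occurred in 5 of the 8 (S100a8, Mmp8, Ltf, Mpo and Cxcr2), against 23.3% of all promoters. TGTGGT was found in S100a9 alone among the members and TATAAA in S100a8 alone, against 14.0% and 7.6% of all promoters. Camp held none of the 4 in this window. These matches describe the letters of the windows and do not show binding.

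The quality of the arrays bears on what follows. Array medians lay between 6.79 and 6.88 on all 22 arrays. The mean of 11 cord neuron and glia genes was 11.20 to 11.98, in accord with the labelled tissue. Muscle genes were also read: the mean of 10 heart muscle genes was 9.45 to 10.83 on rostral 48 h arrays and 5.77 to 5.85 on sham rostral arrays. The mean of 8 skeletal muscle genes was 6.42 to 9.41 on rostral 48 h arrays, with a median of 6.59. Caudal 48 h array 271 stood apart in its spread (SD 2.05 over probe sets, against 2.21 to 2.27 on the others) and its lower quartile (5.52, against 5.17 to 5.27), so dim genes read higher on it. Caudal 48 h array 274 and sham caudal array 280 had the lowest Gapdh 5′ minus 3′ differences, of -1.05 and -0.68, against -0.21 to 0.04 on the other 20 arrays. Both 24 h arrays numbered 283 went against their region labels: Hoxc10, a gene of the lower cord, read 5.67 on the array labelled caudal and 10.14 on the array labelled rostral. These 2 are called the arrays labelled caudal and rostral 283.

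**Figure D1:**
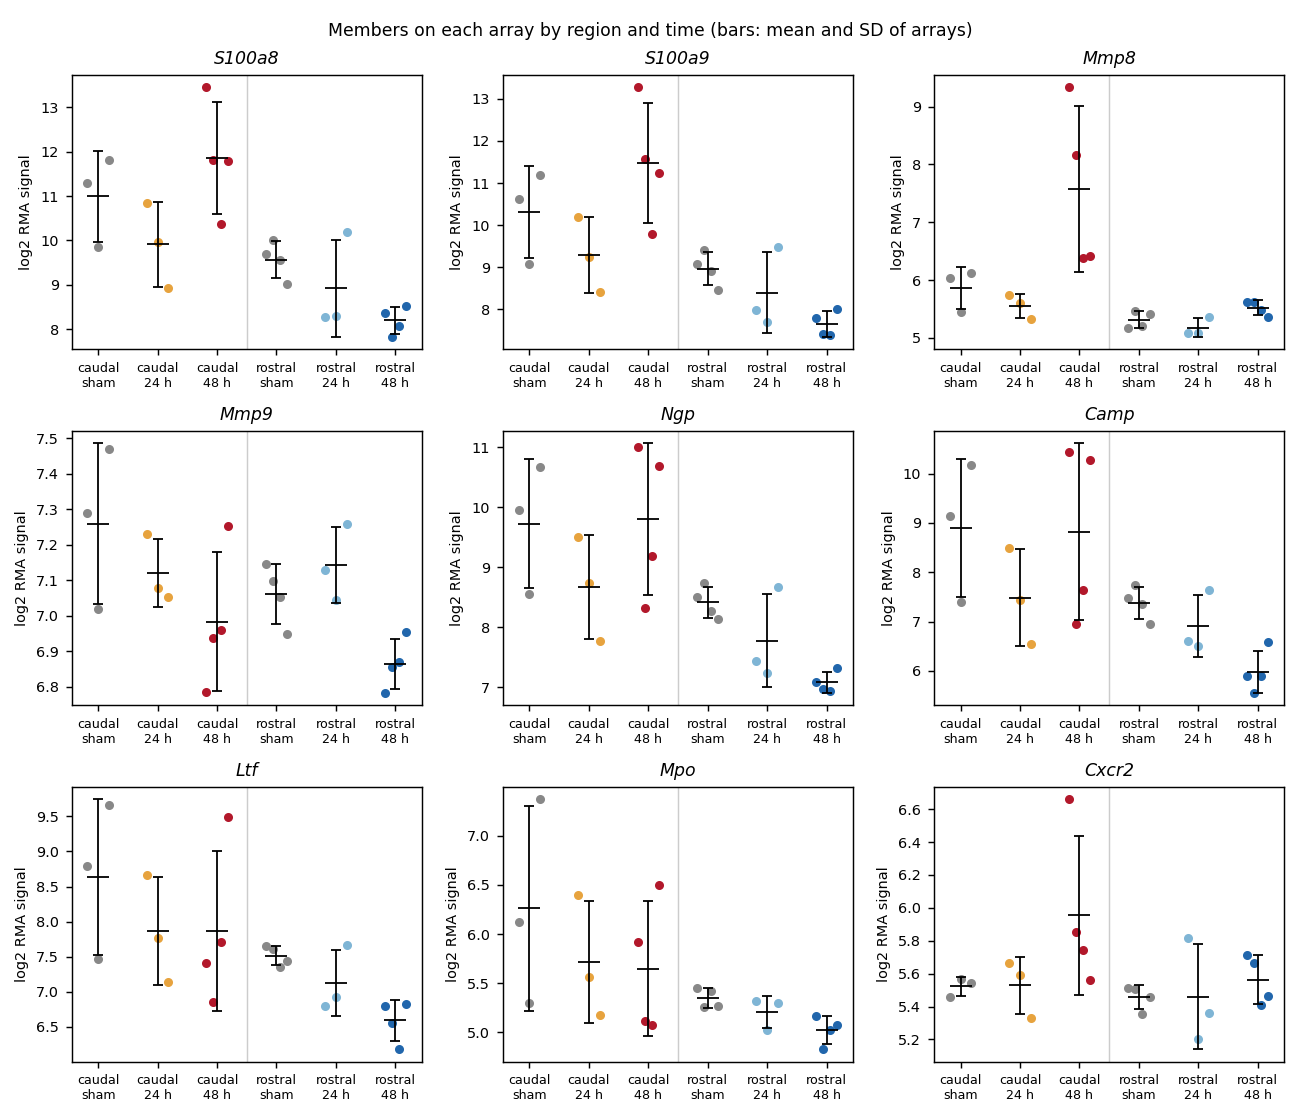
Log2 RMA signal of the 9 genes (y axes, each with its own range) in 6 groups (x axes), with 1 point per array and bars for the mean and SD. Caudal arrays spread widely in every group, sham included, and the 4 rostral 48 h arrays lie below the 4 rostral sham arrays for S100a8, S100a9, Ngp, Camp, Ltf and Mpo.

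Below T6 at 48 h, 1 of the 9 genes rose against sham. This was Mmp8, neutrophil collagenase, and none fell. Over all 18193 genes 5.52% were called higher in the same comparison and 12.5% in either direction, so 1 of 9 is near the background. A gene was called where limma's Benjamini-Hochberg adjusted p was under 0.05 over all genes.

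Mmp8 read 9.34, 8.16, 6.38 and 6.41 on caudal 48 h arrays 271 to 274, against 6.03, 5.45 and 6.12 on sham caudal arrays 278 to 280. All 48 h arrays lay above all sham arrays, 271 and 272 by far and 273 and 274 by little. Non-overlap in this direction was seen in 8.9% of all genes. The difference was 1.71 ± 0.46 (SE), or 3.26-fold, with an adjusted p of 0.0234 by limma. It was 1.12 without array 271 and 0.77 with array weights, which give less weight to arrays that scatter more. The call was lost without caudal 48 h array 272 (adjusted p = 0.0517 by limma) or without sham caudal array 278, 279 or 280 (adjusted p = 0.0683, 0.0965 and 0.0528 by limma), and in a fit of these groups alone (adjusted p = 0.458 by limma).

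The alarmin pair did not separate caudal 48 h from caudal sham. S100a8 read 13.46, 11.81, 10.38 and 11.79 on caudal 48 h arrays 271 to 274, against 11.30, 9.85 and 11.82 on sham caudal arrays 278 to 280. S100a9 read 13.28, 11.58, 9.80 and 11.23 on the same 48 h arrays, against 10.63, 9.09 and 11.19 on the same sham arrays. Array 271 was the highest of all for both genes. The other 48 h arrays lay inside the sham range for S100a8, and for S100a9 array 272 lay above it, 274 just above it and 273 inside it. The differences were 0.86 ± 0.61 for S100a8 (SE; adjusted p = 0.306 by limma) and 1.17 ± 0.63 for S100a9 (SE; adjusted p = 0.191 by limma), and with array weights both turned negative, at -0.28 and -0.12.

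The secondary granule genes did not separate caudal 48 h from caudal sham. Ngp, neutrophilic granule protein, read 11.01, 8.33, 9.19 and 10.69 on caudal 48 h arrays 271 to 274, against 9.95, 8.56 and 10.68 on sham caudal arrays 278 to 280. Camp, which encodes the antimicrobial cathelicidin, read 10.44, 6.95, 7.64 and 10.28 on the 48 h arrays and 9.13, 7.41 and 10.17 on the sham arrays. Both groups held high and low arrays for both genes, and the differences were 0.08 ± 0.56 for Ngp and -0.07 ± 0.73 for Camp (SE; adjusted p = 0.929 and 0.945 by limma). Ltf, which encodes the iron-binding lactoferrin, read 7.41, 6.85, 7.71 and 9.49 on the 48 h arrays, against 8.79, 7.46 and 9.66 on the sham arrays. Its difference was -0.77 ± 0.51 (SE; adjusted p = 0.278 by limma), with overlapping groups.

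The other members were not called at 48 h below T6 either. Mpo, the myeloperoxidase of primary granules, read 5.91, 5.11, 5.07 and 6.50 on the 48 h arrays, against 6.13, 5.30 and 7.37 on the sham arrays, a difference of -0.62 ± 0.38 (SE; adjusted p = 0.245 by limma). Cxcr2, the receptor by which neutrophils follow CXC chemokines, read 6.66, 5.85, 5.75 and 5.56 on the 48 h arrays and 5.46 to 5.57 on the sham arrays, a difference of 0.43 ± 0.19 (SE; adjusted p = 0.122 by limma). Mmp9, the gelatinase of late granules, stayed within 6.78 to 7.47 on all 21 grouped arrays on its probe set with the highest mean. The difference on that probe set was -0.28 ± 0.11 (SE, with an adjusted p of 0.101 by limma). Values of its other probe set, with a mean of 6.58 over all arrays, are not given. Without caudal 48 h array 274, 3 further genes were called: Ltf lower (-1.31), Mmp9 lower (-0.36) and Cxcr2 higher (0.56), with adjusted p-values of 0.028, 0.0161 and 0.0322 by limma.

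The caudal arrays followed 2 patterns. Camp and Ltf were at or near their highest on sham caudal array 280 and on 48 h array 274, and low on 48 h array 272. Mmp8 was high on 48 h arrays 271 and 272 and much lower on 280 and 274. Arrays 280 and 274 are the pair with the lowest Gapdh 5′ minus 3′ differences, of -0.68 and -1.05, and the part of this sign of RNA quality in the pattern was not tested. Array 271 was high for Camp and Ngp as well as for Mmp8, but not for Ltf. The plot of Mmp8 against Ngp shows the divergence: array 272 had a Mmp8 level of 8.16 with a Ngp level of 8.33, and array 280 had 6.12 with 10.68. Fewer cells of a type and less RNA per cell cannot be told apart in these bulk samples.

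**Figure D2:**
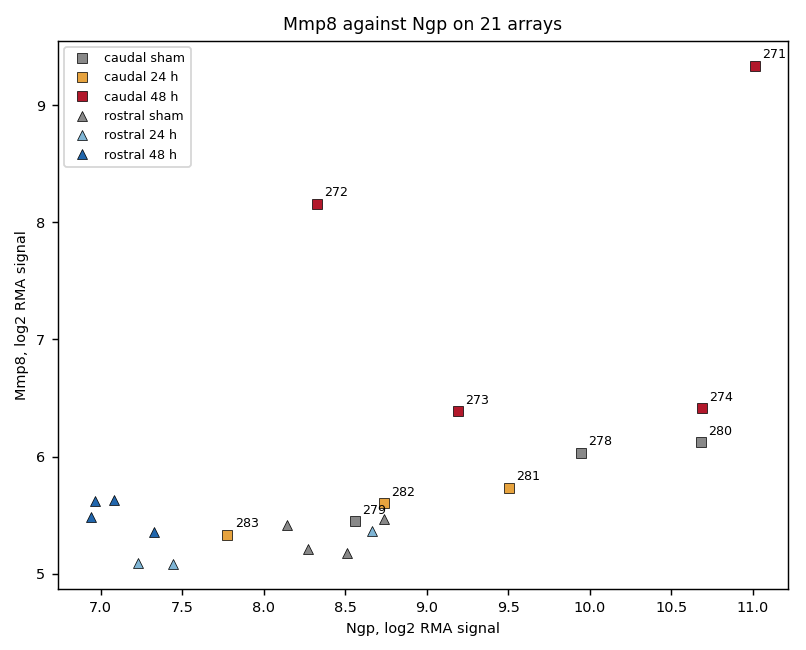
Mmp8 (y axis) against Ngp (x axis), both log2 RMA signal, on 21 arrays coloured by group, with title numbers beside the caudal arrays. Caudal sham and 24 h arrays run along the bottom, up to a Ngp level of 10.68, and caudal 48 h arrays 271 and 272 lie above the rest.

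Genes of other cell types were read on the same arrays, and their part in the members' values was not tested. Prtn3, the proteinase of primary granules, read 7.96, 6.18, 6.19 and 7.83 on caudal 48 h arrays 271 to 274 and 7.21, 6.44 and 8.01 on sham caudal arrays 278 to 280. Slc4a1, the anion exchanger of red cells, read 5.94, 5.67, 6.04 and 6.95 on the same 48 h arrays and 6.23, 5.55 and 7.34 on the same sham arrays. Ppbp, a platelet chemokine gene, read 6.09, 4.13, 4.08 and 4.94 on the 48 h arrays and 4.97, 4.78 and 6.61 on the sham arrays. Arrays 280 and 274, high in Camp and Ltf, were thus also high in Prtn3 and in Slc4a1. Array 271, high in Mmp8 and Camp, was high in Prtn3 too, but not in Slc4a1. Ppbp was high on arrays 280 and 271 but not on 274. The mean of 12 erythroid genes was 5.32 to 6.10 on caudal 48 h arrays and 5.23 to 5.77 on sham caudal arrays. That of 7 megakaryocyte and platelet genes was 6.30 to 7.06 and 6.42 to 6.92. Both means were highest on array 271, where dim genes read higher. Their deviations from the mean of all grouped arrays were 0.71 and 0.639 on 271. They were 0.374 and 0.496 on array 280, and 0.23 and 0.167 on array 274. The mean of 10 marrow B cell precursor genes was 5.63 to 6.09 on caudal 48 h arrays and 5.59 to 5.66 on sham caudal arrays, with Vpreb3 at 6.22 to 6.50 and 6.11 to 6.36. Alas2 and Hbb-b2 of the erythroid list averaged 6.79 and 5.435 on caudal 48 h arrays and 6.558 and 4.96 on sham caudal arrays. Pf4 of the platelet list averaged 8.564 and 8.076. At 48 h against sham, 0 of 12 erythroid genes and 0 of 4 primary granule genes were called, while 1 of 10 marrow B cell precursor genes was higher, and of 7 megakaryocyte genes 1 was higher and 1 lower.

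**Figure D3:**
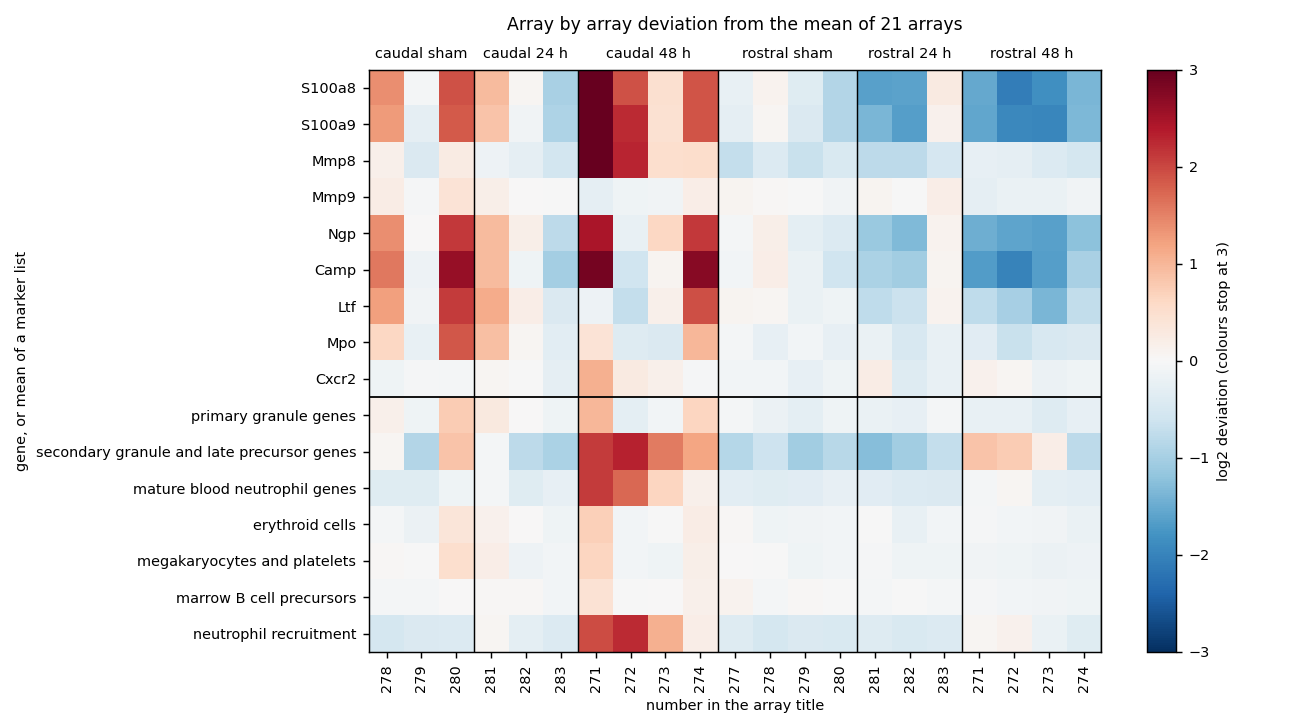
Deviation of each of 21 arrays (columns, by group and title number) from the mean of all, on the log2 scale, for the 9 genes and for the means of 7 marker lists (rows); colours stop at 3. Camp and Ltf are deep red on sham 280 and 48 h 274, while Mmp8 and the mature neutrophil and recruitment lists are deep red on 48 h 271 and 272.

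Genes of mature blood neutrophils rose at 48 h below T6: 6 of 10 measured genes were higher and 0 lower, with a median difference of 1.02, against 0.004 over all genes. Clec4d, a C-type lectin of myeloid cells, read 10.28, 8.63, 6.31 and 5.73 on caudal 48 h arrays 271 to 274, against 4.77, 4.73 and 5.06 on sham caudal arrays. Its difference was 2.89 ± 0.66 (SE; adjusted p = 0.0093 by limma). The other examples were Il1b (4.27), Il1r2, the decoy receptor for interleukin 1 (1.81), and Fpr2, a formyl peptide receptor (1.70), while Csf3r, the G-CSF receptor, missed the threshold at 0.73 (adjusted p = 0.0523 by limma). The mean of the list was 6.78 to 8.72 on caudal 48 h arrays and 6.24 to 6.48 on sham caudal arrays. Without arrays 271, 274 and 280, 8 of the 10 were called, and without array 271 alone 5 of the 10, but 0 in a fit of these groups alone. Macrophages also express several of these genes, and 8 of 11 monocyte and macrophage genes rose in the same comparison.

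Among the other genes of secondary granules and late precursors, 3 of 4 rose: Lcn2, lipocalin 2 (3.13 ± 0.68), Chil3 (2.62 ± 0.66) and Pglyrp1 (1.33 ± 0.37; SE; adjusted p = 0.00647, 0.0157 and 0.0257 by limma). Cd177 did not pass, at -0.01. Lcn2 is also made by reactive astrocytes and Chil3 by macrophages. The count was 0 in a fit of these groups alone.

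Of 13 recruitment genes 9 were higher and 0 lower at 48 h below T6, with a median difference of 1.64. Cxcl2, a ligand of CXCR2, read 11.28, 10.04, 9.18 and 6.67 on caudal 48 h arrays 271 to 274, against 3.67, 3.92 and 3.87 on sham caudal arrays, and its difference was 5.47 ± 0.63 (SE; adjusted p = 3.55e-05 by limma). Csf3, which encodes the growth factor G-CSF, read 10.31, 9.55, 9.12 and 6.88 on the 48 h arrays and 6.26 to 6.35 on the sham arrays. Array 274 was the lowest of the 4 for both ligands. Cxcl1 (1.34) and Itgb2, the shared chain of leukocyte integrins (1.64), were the other examples. A fit of these groups alone called 2 of the 13.

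Of 11 genes of alarmin signalling, 7 were higher and 1 lower in the same comparison. Il1a (3.21), Myd88, the adaptor of Toll-like receptors (1.92), Il33 (1.17) and Cd36 (1.34) had the smallest p-values. Heart muscle genes were higher in the same comparison: 5 of 10 were called higher and 1 lower, Myh6 at 2.07, Myl2 at 3.26 and Actc1 at 2.19 among the higher ones, and the mean of the list was 6.50 to 8.02 on caudal 48 h arrays and 5.73 to 5.84 on sham caudal arrays. Cd36, a fatty acid receptor that heart muscle also expresses, rose with them above T6 too, by 3.54 at 48 h against sham, and the part of heart muscle RNA in its values was not tested. Tlr4, a receptor of calprotectin, was picked out after its values were seen, and its difference was 0.86 ± 0.23 (SE; adjusted p = 0.0211 by limma). Of 7 granule protease inhibitors and partners, 4 were higher and 2 lower. Timp1, the inhibitor that binds Mmp9, differed by 3.88 ± 0.61, Serpina3n by 2.86, and Srgn, the serglycin core of granules, by 2.04, while Mmp2 fell by 0.95. Fits of these groups alone called 2 of the 11 and 1 of the 7.

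Above T6 at 48 h, 0 of the 9 genes were called against sham by limma, where 0.61% of all genes were, although 3 members had an unadjusted p under 0.05. So did 1288 of the 18193 genes. The values nevertheless separated for 6 of the 9, with every 48 h array below every sham array for S100a8, S100a9, Ngp, Camp, Ltf and Mpo. Over all genes 7.46% separated in that direction. Array 276, whose labels give both 24 h and 48 h, is not among these arrays. It read 9.655 for S100a8, 9.098 for S100a9, 8.343 for Ngp, 7.238 for Camp and 7.391 for Ltf, all inside the sham rostral ranges. Counted as 48 h, it would end the separation for these genes but not for Mpo, at 5.241.

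S100a8 read 8.36, 7.83, 8.06 and 8.53 on rostral 48 h arrays 271 to 274, against 9.68, 10.01, 9.55 and 9.02 on sham rostral arrays 277 to 280. Camp read 5.89, 5.55, 5.90 and 6.58 on the same 48 h arrays, against 7.47, 7.75, 7.35 and 6.95 on the same sham arrays. The rostral 48 h and rostral sham arrays lay much closer together than their caudal counterparts. The differences were -1.37 ± 0.57 for S100a8, -1.32 ± 0.59 for S100a9, -1.33 ± 0.52 for Ngp, -1.40 ± 0.68 for Camp and -0.92 ± 0.47 for Ltf (SE; adjusted p = 0.528, 0.614, 0.457, 0.726 and 0.792 by limma). Mpo differed by -0.33 ± 0.35 and Mmp8 by 0.20 ± 0.43 (SE; adjusted p of 1 for both by limma).

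These values carry a spread that the fit shares over all groups, caudal ones included, and the calls changed with the groups fitted. A fit of the rostral 48 h and rostral sham arrays alone called S100a8, S100a9, Ngp, Camp and Ltf lower, with adjusted p-values of 0.0146, 0.0146, 0.000952, 0.0156 and 0.0141 by limma. With array weights 4 of the 9 were called lower, and without caudal arrays 271, 274 and 280 1 was. The share of all genes called in these fits is not given, so these counts have no background beside them.

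Other neutrophil genes differed in direction above T6. The 4 primary granule genes had differences of -0.29 to -0.03, with 0 called by limma, and every 48 h array lay below every sham array for Prtn3 (-0.29) and, among the mature neutrophil genes, for Mxd1 (-0.22). Clec4d (0.61) and Fpr2 (0.23) separated the other way. Of the secondary granule and late precursor genes outside the members, Cd177 differed by -0.26 and Chil3 by 0.43, with overlapping groups. Pglyrp1 also overlapped, with a difference of 1.165 ± 0.341 (SE, with an adjusted p of 0.18 by limma). Serpinb1a, an inhibitor of neutrophil serine proteases, fell by 1.45 ± 0.31 (SE; adjusted p = 0.0319 by limma). Lcn2 rose by 3.06 ± 0.63 (SE; adjusted p = 0.027 by limma), reading 11.58, 11.51, 11.08 and 8.41 on rostral 48 h arrays 271 to 274, against 7.52, 7.85, 7.11 and 7.88 on sham rostral arrays. The calls of Serpinb1a and Lcn2 were lost without both arrays numbered 283. Of 10 mature neutrophil genes 0 were called by limma, with a median difference of 0.08, against -0.02 over all genes. The recruitment list gave 0 of 13, with a median of 0.33. The mean of 10 heart muscle genes was 9.45 to 10.83 on rostral 48 h arrays and 5.77 to 5.85 on sham rostral arrays, and its part in the members' lower values was not tested.

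**Figure D4:**
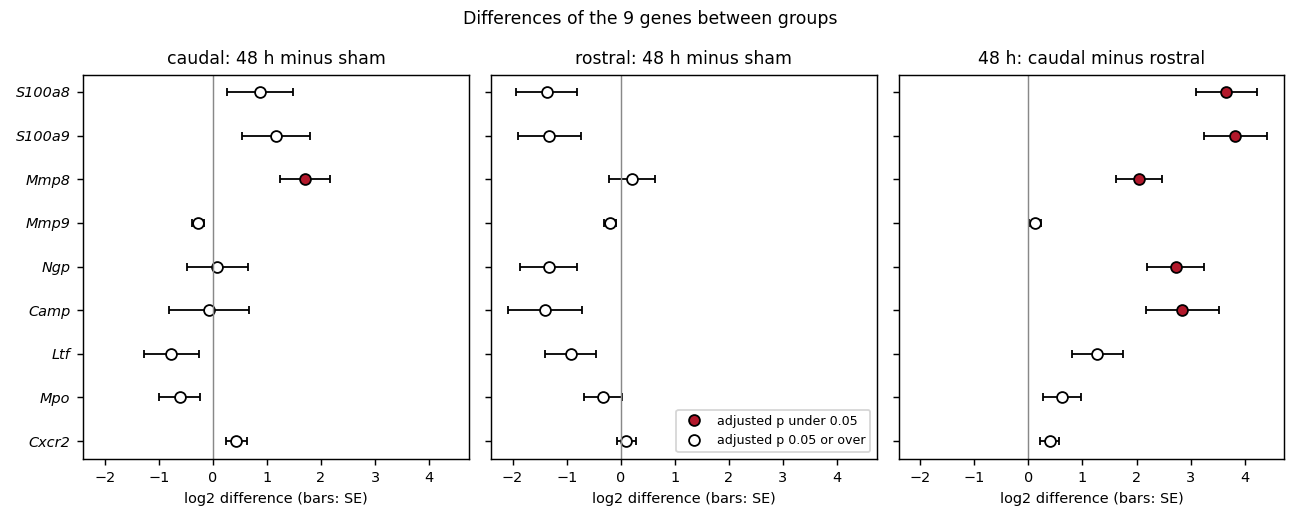
Log2 differences of the 9 genes (x axes) with SE bars from limma, for caudal 48 h minus sham, rostral 48 h minus sham and 48 h caudal minus rostral; filled points have an adjusted p under 0.05. Only Mmp8 is filled on the left, none in the middle and 5 genes on the right.

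At 48 h, 5 of the 9 genes were higher in caudal than in rostral cord and 0 were lower, where 5.57% of all genes were called higher. They were S100a9 (3.83 ± 0.59), S100a8 (3.66 ± 0.57), Camp (2.85 ± 0.68), Ngp (2.72 ± 0.52) and Mmp8 (2.05 ± 0.43; SE). Their adjusted p-values were 0.000549, 0.000585, 0.0126, 0.00294 and 0.00535 by limma. With Ltf (1.28 ± 0.47; SE; adjusted p = 0.0938 by limma) 6 of the 9 had all caudal arrays above all rostral arrays, as 5.23% of all genes did. For S100a8 the caudal minus rostral difference within a title number was 5.10, 3.98, 2.32 and 3.26 for 271 to 274. Camp lost its call without caudal arrays 271, 274 and 280, at 1.32 (adjusted p = 0.0789 by limma), and a fit of these groups alone called 2 of the 9, S100a8 and S100a9. All 10 heart muscle genes were called lower in caudal than in rostral cord at 48 h, with a median of -3.38, and their part in the members' differences was not tested.

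Sham cord showed the same order of regions. Caudal minus rostral, 0 of the 9 genes were called by limma, where 0.335% of all genes were, but 5 members had an unadjusted p under 0.05. Over all 18193 genes, 1003 had an unadjusted p under 0.05 by limma. The differences were positive for all 9, with a median of 1.12 over the members, against -0.01 over all genes. They were 1.43 ± 0.61 for S100a8, 1.52 ± 0.73 for Camp, 1.12 ± 0.51 for Ltf and 0.91 ± 0.38 for Mpo (SE; adjusted p = 0.819, 0.911, 0.87 and 0.787 by limma). Sham caudal array 279 lay among the rostral sham values for S100a8 and Camp, so the groups overlapped. Within a title number the S100a8 difference was 1.29, 0.30 and 2.80 for 278 to 280.

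Markers of marrow and blood cells gave mixed values in sham cord, and 0 were called by limma. The 4 primary granule genes were all positive, at 0.15 to 0.84, with Prtn3 the highest and Elane, neutrophil elastase, at 0.48. The 12 erythroid genes ran from -0.42 (Hba-a2) to 0.80 (Slc4a1), with a median of 0.06, and the 7 megakaryocyte and platelet genes from -0.10 (Treml1) to 1.20 (Ppbp), with a median of 0.03. The 10 marrow B cell precursor genes ran from -0.16 (Blnk) to 0.08 (Rag2), with a median of -0.09. Elane, Prtn3, Slc4a1 and Ppbp were the genes of these 4 lists with an unadjusted p under 0.05. Of the defining markers, Alas2 differed by 0.515, Hbb-b2 by 0.04 and Pf4 by 0.158. The secondary granule and late precursor genes outside the members were all positive, with overlapping groups: Chil3 (1.61), Cd177 (0.83), Lcn2 (0.75) and Pglyrp1 (0.26). Chil3 and Cd177 also had an unadjusted p under 0.05. The mature neutrophil list had a median of 0.04 and the recruitment list one of 0.03 in this comparison, with 0 of 10 and 0 of 13 called by limma. A fit of the sham groups alone called S100a8 and Mmp8 higher, with adjusted p-values of 0.0455 and 0.048 by limma. The share of all genes called in that fit is not given.

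The test of whether the 48 h difference depended on region called 0 of the 9 genes by limma, against 0.561% of all genes, and 3 members had an unadjusted p under 0.05. In the same test 2228 of the 18193 genes had an unadjusted p under 0.05 by limma. Caudal effect minus rostral effect was 2.49 ± 0.86 for S100a9, 2.24 ± 0.83 for S100a8 and 1.50 ± 0.63 for Mmp8 (SE; adjusted p = 0.282, 0.323 and 0.384 by limma).

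At 24 h the members were not called against sham in either region by limma, where 0.0055% of all genes were called below T6 and 0% above it, and 0 of the 9 had an unadjusted p under 0.05 in either. Of the 18193 genes, 528 had one below T6 and 142 above it. S100a8 read 10.85, 9.95 and 8.93 on caudal 24 h arrays 281 to 283, a mean of 9.91 ± 0.96, against 10.99 ± 1.02 in caudal sham (SD, n = 3 each). Camp averaged 7.49 ± 0.98 in caudal 24 h and 8.90 ± 1.40 in caudal sham (SD, n = 3 each). As labelled, the groups overlapped for all 9 genes. Above T6 the overlap of S100a8, S100a9, Ngp, Camp and Ltf rested on the array labelled rostral 283. For these genes rostral 24 h arrays 281 and 282 and the array labelled caudal 283 all lay below the lowest sham rostral array, which was 9.02 for S100a8. No fit with the labels of the arrays numbered 283 exchanged is given. Above T6, S100a8 read 8.27 and 8.31 on arrays 281 and 282 and 10.18 on the array labelled rostral 283, so that number 283 was the only one of the 10 in which the rostral array was above the caudal one for this gene, by 1.25.

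Between the times, 2 of the 9 genes were higher at 48 h than at 24 h below T6, where 4.24% of all genes were. Mmp8 differed by 2.02 ± 0.46 and S100a9 by 2.19 ± 0.63 (SE; adjusted p = 0.0134 and 0.0441 by limma). Without the array labelled caudal 283 neither was called, at 1.91 and 1.75 (adjusted p = 0.0862 and 0.24 by limma), and without caudal 24 h array 282 neither was, with adjusted p-values of 0.0602 and 0.145 by limma. S100a9 also lost its call without caudal 48 h array 271 (1.58; adjusted p = 0.084 by limma), and in all in 15 of the 21 fits that left out 1 array. Above T6, 0 of the 9 were called by limma, against 0.363% of all genes, and 1 member, Mmp9, had an unadjusted p under 0.05, with a difference of -0.28 ± 0.11 (SE; adjusted p = 0.705 by limma). An unadjusted p under 0.05 by limma was seen in 956 of the 18193 genes above T6.

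In the order of group means, caudal 48 h came first for S100a8, S100a9, Mmp8, Ngp and Cxcr2, and caudal sham first for Camp, Ltf, Mpo and Mmp9. Rostral 48 h was last for S100a8, S100a9, Ngp, Camp, Ltf, Mpo and Mmp9. Neighbouring groups in these orders overlapped for every gene except Mmp8, whose caudal 48 h arrays did not overlap those of caudal sham.

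Over the 21 grouped arrays, as a description in which all values share the arrays' normalization, S100a8 and S100a9 had a Pearson r of 0.995, and Ngp and Camp one of 0.982. S100a8 and S100a9 also followed Ngp closely, with an r of 0.927 and 0.904, and S100a9 had one of 0.872 with Camp. Mmp8 had an r of 0.821 with S100a9, 0.563 with Ngp and 0.119 with Ltf. The genes outside the list most like Ngp were Fxyd6 (r = 0.955), Prg2 (0.928), Npepl1 (0.919), Prtn3 (0.901) and Serhl (0.889). Those most like Mmp8 were Clec4d (0.965), Sertad1 (0.96), Fpr2 (0.96), Ppan (0.959) and Stx11 (0.958). Those most like S100a9 were Rell1 (0.935), Fxyd6 (0.916), Trip6 (0.909), Slc66a2 (0.905) and Mob3a (0.893).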

How the data were processed

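Total RNA was hybridised to 22 Affymetrix Mouse430_2 arrays. The deposited values are log2 signals made by the authors with RMA, per the submitters' processing notes; no version is given in the sources used here. No read depth exists for arrays, and their number limits the precision. Of 45101 probe sets, 34945 carry 1 gene symbol in the platform annotation, which gave 18193 genes, each taken at its probe set with the highest mean. Group means (6 groups, 21 arrays) came from limma 3.58.1 (lmFit, eBayes; R 4.3.3, statmod 1.5.0), the spread being pooled over all groups. Tests were two-sided. A gene was called at an adjusted p under 0.05 (Benjamini-Hochberg, over all genes). The fit was tested on simulated data. No filter on dim genes was used. The 9 members and 16 marker lists were chosen with earlier results of these data known. Named were all members, the defining markers that were measured and up to 4 genes of a list with the smallest p. Ly6g, a planned marker, was not measured. Prtn3, Slc4a1 and Ppbp were shown by array after their values were seen. Genes at the ends of a list's range or whose groups separated (such as Mxd1 and Serpinb1a) were also named after their values were seen. Alternatives covered probe set choice, normalization, a filter on dim genes, the estimate of spread, the groups fitted, the title number as a block, and arrays left out. List counts without doubted arrays, or with the compared groups alone, were added after seeing the data. The title numbers were not taken as pairs.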

Additional observations from a re-analysis of the deposited data

Results flagged for a closer look

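The rostral array 276, which is in no group, read 10.55 for the mean of 10 heart muscle genes. This was above the 5.77 to 5.85 of the sham rostral arrays and the 5.845 to 6.047 of the rostral 24 h arrays. It was within the 9.45 to 10.83 of the rostral 48 h arrays. Array 276 was singled out because the signal lies in an array that the comparisons do not use. No member had an array far enough from the rest of a group of 4 to be picked out, and no member passed the test of a regional difference.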

How the results depend on the processing

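Members called at caudal 48 h minus sham numbered 1, but 0 among brighter genes only (3 members left), 3 with array weights (1 higher, Mmp8 at 0.77, and 2 lower, Mpo at -0.89 and Mmp9 at -0.26), 0 with the compared groups alone and 0 to 4 with 1 array left out. Rostral 48 h minus sham gave 0, but 4 with array weights, 5 with the compared groups alone and 1 without caudal arrays 271, 274 and 280. Caudal 48 h minus 24 h gave 2, but 1 with every probe set, among brighter genes only, with array weights or without those 3 arrays, 0 with the compared groups alone or without both arrays numbered 283, and 0 to 4 with 1 array left out. Sham caudal minus rostral gave 0, but 1 with array weights and 2 with the compared groups alone. 48 h caudal minus rostral gave 5, but 3 among brighter genes only, 2 with the compared groups alone and 5 to 6 with 1 array left out. The comparisons of 24 h with sham, rostral 48 h minus 24 h and the regional difference gave 0 in all alternatives run. A fit of the compared groups alone has fewer arrays behind its spread. The cause of the other changes was not tested. Shares of all genes called are not given for the alternatives, so their counts cannot be set against a background.

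Differences that changed sign at caudal 48 h minus sham were, with array weights, S100a8 (-0.28), S100a9 (-0.12) and Ngp (-0.48); without arrays 271, 274 and 280, Ngp (-0.49); and with arrays centred, Camp (0.001). At caudal 48 h minus 24 h they were Camp without those 3 arrays (-0.19), and Ltf with array weights (-0.018), without both arrays numbered 283 (-0.35) and without those 3 arrays (-0.58). The rest were Mpo at caudal 24 h without those 3 arrays (0.003), Cxcr2 at caudal 24 h with quantile normalisation repeated (-0.056) and at rostral 24 h with array weights (-0.12), and the regional difference of Ltf with array 276 as rostral 48 h (-0.006).

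With 1 array left out, the ranges that crossed 0 were, at caudal 48 h minus sham, Camp -0.82 to 0.56 and Ngp -0.51 to 0.57; at caudal 48 h minus 24 h, Ltf -0.53 to 0.41 and Mpo -0.35 to 0.28; at 24 h minus sham, Cxcr2 -0.06 to 0.10 and Mpo -1.03 to 0.003 below T6 and Cxcr2 -0.18 to 0.13 above it; at rostral 48 h minus 24 h, Cxcr2 -0.027 to 0.28; and for the regional difference, Ltf -0.43 to 0.67, Mmp9 -0.20 to 0.026 and Mpo -0.77 to 0.27. Arrays of a title number share only the number: their deviations correlated from -0.45 to 0.53. With the title number as a random replicate block, Mmp8 at caudal 48 h minus sham was 1.71 (adjusted p = 0.0217 by limma), and the block changed no call in any comparison.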

Other observations

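On the ungrouped rostral array 276, the alarmin pair read 9.65 (S100a8) and 9.10 (S100a9). S100a8 on array 276 lay above all 4 rostral 48 h arrays, which reached 8.53, and inside the sham rostral range of 9.02 to 10.01. The mean of the 9 members was 7.20 on array 276, 6.36 to 6.68 on rostral 48 h arrays, 6.556 to 7.435 on rostral 24 h arrays, and 7.01 to 7.43 on sham rostral arrays.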
